A study of Homo sapiens with 8 samples.

Results

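The genes described here are the protein-coding genes of human chromosome 19 whose symbol begins with ZNF and whose counts summed to 50 or more over all 8 libraries. The table held 249 protein-coding ZNF genes on that chromosome among its 58336 gene identifiers, and 181 of them met the minimum. Of the other 68, 40 had 1 to 49 counts and 28 had none. Just under the minimum were ZNF570, ZNF93 and ZNF233 with 47, 48 and 49 counts, and just above it were ZNF253, ZNF429 and ZNF114 with 58, 68 and 79 counts. All 181 members passed the filter on low counts that was applied before testing.

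Most of these genes encode Krüppel-associated box (KRAB) zinc finger proteins. Such a protein binds DNA through an array of C2H2 zinc fingers, and its KRAB domain recruits the co-repressor TRIM28 (also KAP1), which brings the histone methyltransferase SETDB1 and HP1 proteins. Many of them silence transposable elements, and the family has expanded by duplication into clusters along chromosome 19.

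Poly(A) RNA was sequenced from SUM159, a human breast cancer cell line of the triple-negative type with mesenchymal features, in 8 libraries. The groups were ITGB4 high cells grown in dishes (2 libraries), ITGB4 low clone 1 cells grown in dishes (3 libraries), and cells of the same clone taken back from the lungs of mice (3 libraries, genotype label ITGB4 low), here called lung-recovered. The lung-recovered cells had been given through the tail vein, the mice received bleomycin by the trachea, the dissociated lungs were cultured overnight, and tdTomato-positive cells were sorted the next day. ITGB4 low is represented by 1 clone, which is also the source of the lung-recovered cells, so a difference of that clone from ITGB4 high cells and a difference of ITGB4 low cells in general cannot be told apart. No untreated lung group was used here, so bleomycin, growth in a lung, dissociation and sorting cannot be told apart either. The sample titles call the libraries biological replicates, but the labels name no culture or animal for them. The p-values reflect only how much these libraries vary, which may be technical.

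Library totals ran from 20.41 to 27.22 M counts. ITGB4 itself, an integrin beta subunit, stood at 398 ± 30.7 CPM (counts scaled to a common library size; mean ± SD, n = 2) in ITGB4 high, 7.29 ± 1.93 in ITGB4 low clone 1 (n = 3) and 395 ± 16.8 in lung-recovered cells (n = 3), so the dish-grown groups carried the ITGB4 levels of their labels, and the lung-recovered libraries did not carry the low level of the clone they came from. The mesenchymal markers VIM and CD44 were high in all groups, and of 10 epithelial and hormone receptor genes 2, CDH1 and PGR, had 0 counts in all 8 libraries. That list summed to 353 to 405 CPM in ITGB4 high, 448 to 470 in ITGB4 low clone 1 and 587 to 630 in lung-recovered cells. Much of this came from the keratins KRT8 (means of 81.3, 161 and 195 CPM) and KRT18 (215, 213 and 322 CPM) and from ERBB2 (67.5, 66.4 and 67.3 CPM). Of the lists of other cell types, lymphocyte and erythroid markers summed to at most 0.201 CPM and lung epithelial markers to at most 1.93 CPM in any library, with SFTPA1 and HBB at 0 counts. Endothelial markers summed to 14.7 to 22.3 CPM over all libraries. Macrophage markers summed to 3.78 to 4.98 CPM in ITGB4 high cells, 6.72 to 6.94 in ITGB4 low clone 1 and 8.23 to 9.40 in lung-recovered cells. Lung fibroblast and smooth muscle markers summed to 55.8 to 65.3, 46.4 to 54.9 and 153 to 159 CPM, in the order of the groups; COL1A1 (101 CPM) and PDGFRA (36.5 CPM) made up most of the lung-recovered sum, and COL1A2 had 6 counts in all 8 libraries. The part of these markers in the results below was not tested.

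The stretch before the transcription start is shown for 5 of the members named below, to let their base composition be seen. ZNF813, ZNF790, ZNF44 and ZNF558 were among the largest falls in ITGB4 low clone 1, and ZNF470 was among the largest rises. Each sequence is the 250 bases upstream of the start in RefSeq (GRCh38.p14), 5′ to 3′ on the gene's strand, and capitals mark each CpG dinucleotide. The windows are chr19:53467483-53467732 on the + strand for ZNF813, chr19:36850793-36851042 on the - strand for ZNF790, chr19:12294884-12295133 on the - strand for ZNF44, chr19:8832305-8832554 on the - strand for ZNF558 and chr19:56567218-56567467 on the + strand for ZNF470.
ZNF813: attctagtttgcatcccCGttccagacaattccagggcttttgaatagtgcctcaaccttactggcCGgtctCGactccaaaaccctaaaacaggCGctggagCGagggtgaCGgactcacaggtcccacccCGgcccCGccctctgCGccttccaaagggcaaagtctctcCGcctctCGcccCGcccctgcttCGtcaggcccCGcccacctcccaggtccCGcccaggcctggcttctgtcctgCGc
ZNF790: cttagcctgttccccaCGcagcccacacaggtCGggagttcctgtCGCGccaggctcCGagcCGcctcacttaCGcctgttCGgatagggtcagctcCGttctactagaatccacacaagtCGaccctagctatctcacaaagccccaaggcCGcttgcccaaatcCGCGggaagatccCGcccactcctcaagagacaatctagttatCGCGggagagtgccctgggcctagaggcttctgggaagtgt
ZNF44: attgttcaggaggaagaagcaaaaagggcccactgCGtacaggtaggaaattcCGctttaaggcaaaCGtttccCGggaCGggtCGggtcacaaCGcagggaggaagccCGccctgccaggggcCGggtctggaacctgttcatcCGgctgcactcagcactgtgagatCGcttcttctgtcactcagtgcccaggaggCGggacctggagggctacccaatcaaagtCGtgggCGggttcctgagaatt
ZNF558: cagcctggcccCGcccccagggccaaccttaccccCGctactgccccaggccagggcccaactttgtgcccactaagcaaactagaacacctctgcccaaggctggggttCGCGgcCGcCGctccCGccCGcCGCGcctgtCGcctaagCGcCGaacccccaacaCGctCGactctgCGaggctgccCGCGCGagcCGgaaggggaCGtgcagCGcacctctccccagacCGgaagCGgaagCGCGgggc
ZNF470: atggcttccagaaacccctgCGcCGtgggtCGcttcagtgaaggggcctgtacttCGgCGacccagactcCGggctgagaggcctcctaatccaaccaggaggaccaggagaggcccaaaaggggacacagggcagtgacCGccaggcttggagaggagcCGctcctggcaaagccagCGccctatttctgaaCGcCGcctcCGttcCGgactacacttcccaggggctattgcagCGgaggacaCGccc

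These windows held 16, 16, 14, 26 and 15 CpG dinucleotides respectively. RefSeq promoters were matched for 162 of the 181 members, and their median was 16 CpG in 250 bases, against 11 over all 35116 promoters of the table. The upper quartiles were 21 for the members and 23 for all windows. All windows were used without limit to protein-coding genes or to a single window per gene, so promoters of like genes were not compared. A count of 10 or more was found in 89.5% of the members' windows and in 52.2% of all windows. The letters GGGCGG, searched on both strands, were present in 62.3% of the members' windows against 42.6% of all, and CCAAT, on both strands, in 47.5% against 32.0%. The median CpG count was 15 for members higher in ITGB4 low clone 1 than in ITGB4 high, 17 for those lower and 16.5 for those not called. A match to such letters is a description of the window and not a bound site.

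Levels of the family were low. Of the 181 members, 70 reached a mean of 10 CPM or more in at least 1 group, 98 had their highest group mean from 1 to under 10 CPM, and 13 stayed under 1 CPM in every group. The median of the members' mean levels was 6.86 CPM in ITGB4 high cells, 6.02 in ITGB4 low clone 1 and 5.72 in lung-recovered cells. ZNF146, a protein made almost wholly of zinc fingers, had the highest level per kilobase of exon in each group, at 43.8 ± 1.33, 41.5 ± 0.661 and 42.0 ± 2.04 CPM per kb. ZNF581 and ZNF787 followed in ITGB4 high at 26.4 ± 3.00 and 25.4 ± 0.0443 CPM per kb, a difference smaller than the SD of ZNF581. The same pair was in reverse order in ITGB4 low clone 1, at 20.0 ± 2.38 and 21.3 ± 0.813, again within the spread.

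The members together took a larger share of the RNA in ITGB4 high cells than in either group of clone 1 cells. Their summed level was 2189 and 2214 CPM in ITGB4 high cells, 1877, 1872 and 1889 CPM in ITGB4 low clone 1, and 1886, 1829.6 and 1872 CPM in lung-recovered cells. Both ITGB4 high libraries lay above all 6 clone 1 libraries, and the dish-grown and lung-recovered clone 1 libraries overlapped. In bulk RNA a smaller number of cells expressing a gene and less RNA per cell cannot be told apart.

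The first comparison is between dish-grown cells and asks how the ITGB4 low clone differs from ITGB4 high cells. Falls among the chromosome 19 ZNF genes outnumbered rises: by edgeR's quasi-likelihood test with Benjamini-Hochberg adjustment over 15220 genes, 62 members were lower (34.3%), 14 were higher (7.73%) and 105 were not called. Over all genes tested, 27.6% were called lower and 28.6% higher. The members' median log2 fold change was −0.18, against 0.00 over all genes. Most changes were small: 51 of the 62 falls were under 2-fold. A fall of 2-fold or more was called for 11 members, with 3.95% of all genes called at that size, and a rise of 2-fold or more for 3 members, with 9.12% of all genes. The count minimum was summed over all libraries, so a member low in clone 1 could meet it through its ITGB4 high counts. ZNF345 had 21 and 24 counts in ITGB4 high and 7, 8 and 7 in ITGB4 low clone 1, of 86 in all. ZNF813, with 226 counts in all, also met the minimum mainly through ITGB4 high. ZNF726, ZNF429 and ZNF442, with 82, 68 and 95 counts in all, also had their highest means in ITGB4 high (0.99, 0.61 and 0.90 CPM). For such members, selection and fall are not independent. The 11 falls of 2-fold or more therefore cannot be read as an excess over the 3.95% of all genes. For 105 members (58%) every library of one group lay above every library of the other, against 68.7% of all genes. The count of rises was 5 without ITGB4 high replicate 1 and 9 with DESeq2, while the falls ranged from 51 to 62 over the libraries left out.

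Falls also outnumbered rises among other genes of chromosome 19 and other ZNF genes. Of the 696 protein-coding chromosome 19 genes with another symbol, 280 were lower (40.2%) and 139 higher (20%), with a median log2 fold change of −0.12. Among 226 ZNF genes on other chromosomes, 77 were lower (34.1%) and 44 higher (19.5%), with a median of −0.09. In both of these sets the share of rises lay between that of the members and that of all genes. The share of falls was not particular to the members, at 34.3% against 40.2% and 34.1% in these sets. Among the 4495 genes with mean levels of 1 to 16 CPM, the range around the members' median level, 20.7% were lower and 31.2% higher, with a median of 0.06. The difference between the members and these sets was not tested.

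**Figure D1:**
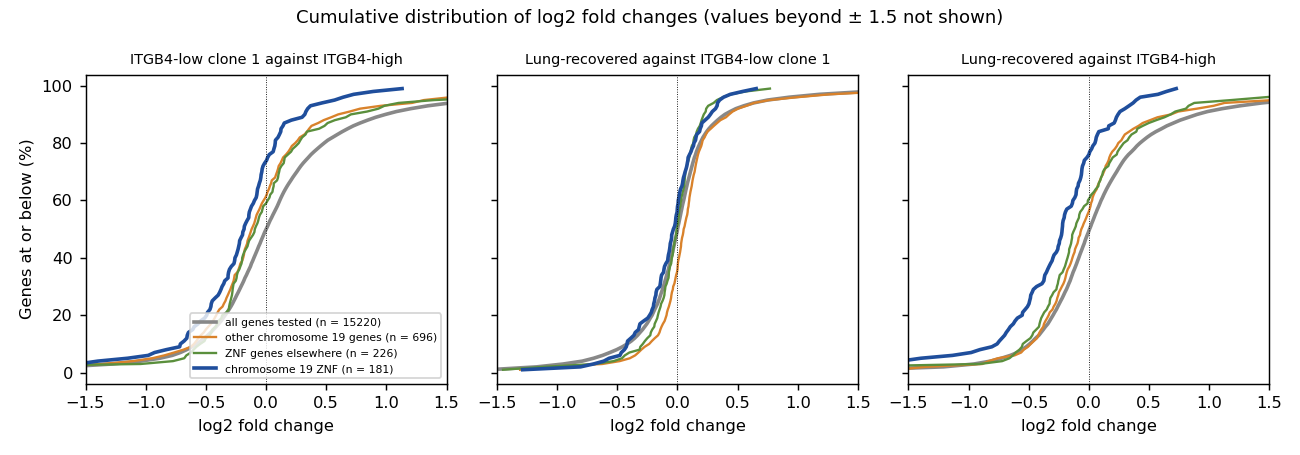
Cumulative percentage of genes (vertical axis) at or below each log2 fold change (horizontal axis) in the 3 comparisons, for all 15220 genes tested, 696 other protein-coding genes of chromosome 19, 226 ZNF genes on other chromosomes and the 181 members. The members' curve lies to the left of the others near the middle in both comparisons with ITGB4 high (medians −0.18 and −0.22), and near that of all genes in lung-recovered cells against ITGB4 low clone 1 (median −0.03).

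The largest fall was that of ZNF813 (ENSG00000198346, hg38 chromosome 19, 53467735 to 53496255), whose upstream window is printed above. It stood at 3.47 and 3.90 CPM in ITGB4 high cells, 0.486, 0.141 and 0.443 CPM in ITGB4 low clone 1, and 0.168, 0.0473 and 0.188 CPM in lung-recovered cells. Every clone 1 library was far below both ITGB4 high libraries, and the clone 1 groups overlapped each other. The log2 fold change in ITGB4 low clone 1 against ITGB4 high was −3.34 ± 0.32 (SE; adjusted p = 3.09e-08). Of its transcript 50-mers, 11.3% also occur in other genes, and 4.4% in ZNF765, the gene with the largest share, so its counts are uncertain where reads could be split. ZNF765, also a member, had a log2 fold change of −0.22 (adjusted p = 0.112).

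ZNF790 (ENSG00000197863, chromosome 19, 36817428 to 36850787) had 6.90 and 8.22 CPM in ITGB4 high cells, 2.14, 2.20 and 2.13 CPM in ITGB4 low clone 1, and 1.51, 0.993 and 1.05 CPM in lung-recovered cells. The 3 groups did not overlap, with ITGB4 high at the top and lung-recovered cells at the bottom. The fold change in ITGB4 low clone 1 was −1.81 ± 0.17 on the log2 scale (adjusted p = 2.24e-08). ZNF44 (ENSG00000197857, chromosome 19, 12224686 to 12294887) showed the same order, with 5.62 and 5.92 CPM in ITGB4 high cells, 2.33, 2.30 and 1.93 in ITGB4 low clone 1 and 0.924, 1.04 and 0.752 in lung-recovered cells. Its log2 fold change in ITGB4 low clone 1 was −1.40 ± 0.17 (adjusted p = 9.06e-07). Exons of both genes overlap a gene on the opposite strand, ZNF790-AS1 and AC012618.3, and the strand setting of the counting is not given in the sources used here. The same limit holds for ZNF558, which overlaps AC008734.1. Exons of ZNF813 and ZNF506 overlap AC022137.1 and AC011477.4 on the same strand.

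ZNF558 (ENSG00000167785, chromosome 19, 8806170 to 8832328), a KRAB zinc finger gene known to repress the mitophagy gene SPATA18, was the most abundant of the strong falls. Its level was 29.6 and 32.9 CPM in ITGB4 high cells, 11.5, 11.6 and 11.1 CPM in ITGB4 low clone 1, and 13.2, 11.2 and 14.5 CPM in lung-recovered cells. The clone 1 groups overlapped each other and lay below ITGB4 high, with a log2 fold change of −1.46 ± 0.09 (adjusted p = 7.89e-11) in ITGB4 low clone 1. ZNF91 (ENSG00000167232, chromosome 19, 23304991 to 23395560), known for silencing SVA and LINE-1 retrotransposons, fell as well. It had 1.21 and 2.22 CPM in ITGB4 high cells, 0.291, 0.281 and 0.362 CPM in ITGB4 low clone 1 and 0.336, 0.331 and 0.602 CPM in lung-recovered cells. The ITGB4 high libraries lay further apart than the clone 1 libraries, and both were still above every clone 1 library (log2 fold change −2.42 ± 0.39, adjusted p = 2.40e-05).

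The other members among the 10 largest falls with a group mean of at least 1 CPM and no overlap were ZNF506, ZNF296, ZNF600, ZNF850 and ZNF525, with log2 fold changes from −1.89 to −0.91 and adjusted p from 9.47e-07 to 0.000354. ZNF296, in which no KRAB pattern was found, fell from 13.1 and 11.3 CPM to 5.83, 6.38 and 5.51 CPM. For ZNF506 the ITGB4 high libraries held 2.41 and 2.26 CPM and the ITGB4 low clone 1 libraries 0.486, 0.703 and 0.684 CPM. All 10 of these falls were called under each of the 12 alternative settings and libraries left out. The falls of 2-fold or more also took in ZNF726, ZNF429, ZNF345 and ZNF442, which were under 1 CPM in every group.

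The called rises had a median log2 fold change of 0.62 and reached 1.39, and the called falls had a median of −0.52 and reached −3.34. ZNF569 (ENSG00000196437, chromosome 19, 37411155 to 37469275) went from 1.58 and 2.30 CPM in ITGB4 high to 5.44, 4.78 and 5.07 CPM in ITGB4 low clone 1, and was at 3.02, 2.65 and 3.23 CPM in lung-recovered cells. The 3 groups did not overlap, and lung-recovered cells lay between the dish-grown groups. Its log2 fold change in ITGB4 low clone 1 was 1.39 ± 0.19 (adjusted p = 2.91e-06). ZNF573 (ENSG00000189144, chromosome 19, 37735833 to 37817300), the next member along the chromosome, went from 1.62 and 1.64 CPM in the ITGB4 high libraries to 3.84, 3.42 and 3.26 CPM in ITGB4 low clone 1 (log2 fold change 1.10 ± 0.19, adjusted p = 6.72e-05). Lung-recovered cells held 2.90, 3.26 and 2.93 CPM of ZNF573, which reaches to the lowest ITGB4 low clone 1 library.

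ZNF470, ZNF100 and ZNF701 rose by 0.85, 0.76 and 0.67 on the log2 scale, with adjusted p of 0.000252, 0.000568 and 0.000402. ZNF433, ZNF585A, ZNF599, ZNF575 and ZNF780A were also among the 10 largest rises, at 0.96, 0.57, 0.47, 0.46 and 0.35, but each of these 5 calls was lost without ITGB4 high replicate 1, at adjusted p of 0.099, 0.248, 0.0575, 0.0593 and 0.115. The call of ZNF599 was also lost without ITGB4 high replicate 2 (adjusted p = 0.0624), and that of ZNF585A without ITGB4 low clone 1 replicate 1 (adjusted p = 0.084). ZNF575 lost its call without ITGB4 high replicate 2 or ITGB4 low clone 1 replicates 2 or 3 as well, at adjusted p of 0.171, 0.0848 and 0.113. ZNF585A shares 17.3% of its 50-mers with other genes, mainly its neighbour ZNF585B, and ZNF701 shares 14.2%, mainly with ZNF808.

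**Figure D2:**
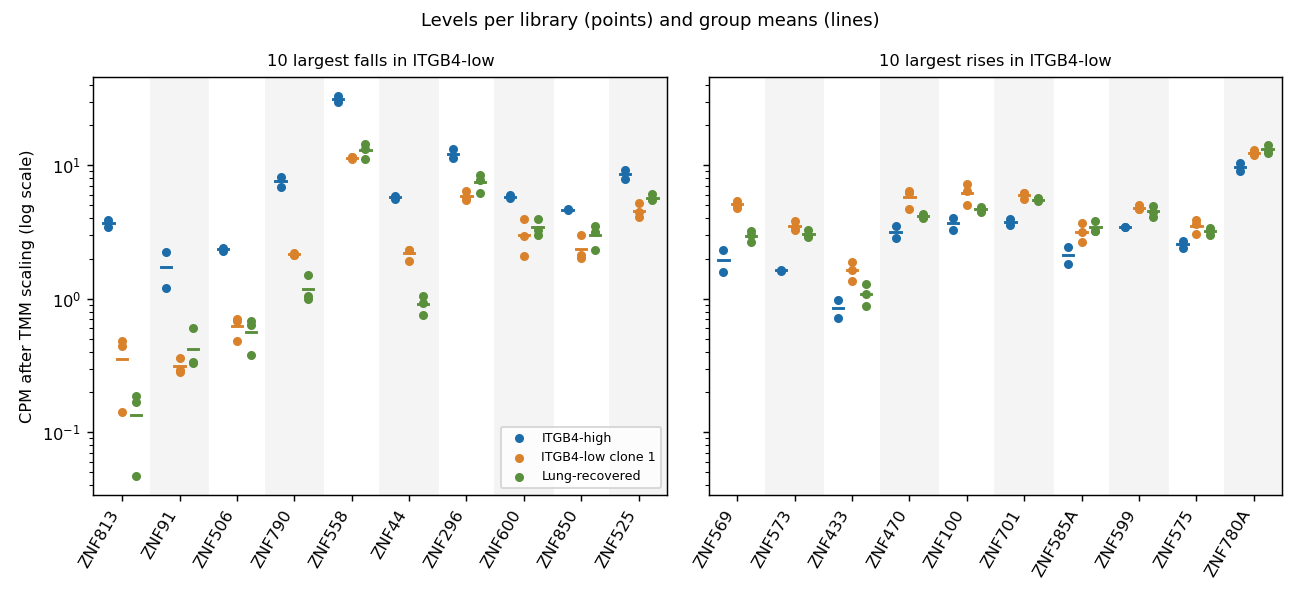
Level of each member in every library (points, CPM after TMM scaling, log axis) and group mean (lines), for the 10 largest falls (left) and the 10 largest rises (right) in ITGB4 low clone 1 against ITGB4 high. ZNF813 drops from 3.47 and 3.90 CPM to at most 0.486 CPM in clone 1 cells, whereas ZNF569 has the largest of the rises at right.

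Members with a described function fell on both sides of the threshold. ZNF224, a repressor first described at the aldolase A gene, had levels of 11.8 and 14.1 CPM in the ITGB4 high libraries against 8.60, 8.68 and 10.3 CPM in those of ITGB4 low clone 1 (log2 fold change −0.49, adjusted p = 0.00114). ZNF473, which acts in histone pre-mRNA processing with the U7 snRNP, fell by 0.43 on the log2 scale (adjusted p = 9.20e-05), ZNF304, a repressor described at the INK4-ARF locus, by 0.49 (adjusted p = 0.000113), and ZNF675, an inhibitor of TRAF6 signalling, by 0.72 (adjusted p = 0.00414). ZNF587, which binds HERV-K sequences, fell by 0.45 (adjusted p = 5.57e-05). ZNF417, which shares 30.5% of its 50-mers with ZNF587, had a log2 fold change of −0.47 that was not called (adjusted p = 0.0561), and was called without ITGB4 high replicate 1 (−0.67, adjusted p = 0.0251).

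ZNF331, reported as silenced by methylation in gastric and colorectal cancers, had 6.56 and 9.16 CPM in ITGB4 high cells, 5.10, 4.27 and 3.94 CPM in ITGB4 low clone 1 and 3.78, 1.89 and 3.16 CPM in lung-recovered cells. It was lower in ITGB4 low clone 1 (log2 fold change −0.83, adjusted p = 0.00112), and the call was lost without ITGB4 high replicate 2 (−0.58, adjusted p = 0.05). ZNF274, which recruits SETDB1 to the 3′ ends of ZNF genes, was not called: its levels of 26.3 and 28.6 CPM in ITGB4 high libraries overlapped those of 28.2, 26.1 and 25.8 CPM in ITGB4 low clone 1 (log2 fold change −0.04 ± 0.07, adjusted p = 0.642). Nor were ZNF146 (−0.08 ± 0.05), ZNF350, a BRCA1-binding repressor (−0.19 ± 0.16), ZNF420, an inhibitor of p53 (−0.09 ± 0.12), ZNF649, which binds LINE-1 sequence (−0.07 ± 0.10), or ZNF808, which binds MER11 elements (0.15 ± 0.20), with adjusted p from 0.19 to 0.564.

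Other chromosome 19 ZNF genes with a described function were under the count minimum and are given as counts. ZNF93, which silences older LINE-1 families, had 11 and 14 counts in ITGB4 high, 4, 2 and 5 in ITGB4 low clone 1 and 5, 4 and 3 in lung-recovered cells. ZNF568 had 12 and 17 counts in ITGB4 high and 0 in each of the 6 clone 1 libraries. ZNF382 had 45 counts in all, ZNF177 had 4 and ZNF671 had 1, while ZNF677, ZNF154, ZNF582 and ZNF132 had 0 counts in 8 libraries. Several of these genes are known as targets of promoter methylation in cancers.

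A list of 38 genes, here called the co-repressor list, held co-repressors that KRAB zinc finger proteins work with and other silencing factors. It also held enzymes that remove methyl marks, the 5-methylcytosine oxidases TET1, TET2 and TET3 and the histone demethylases KDM4A, KDM4B and KDM4C. Of the list, 12 were higher (31.6%) and 12 lower (31.6%) in ITGB4 low clone 1, shares near the 28.6% and 27.6% of all genes. TET1, TET2 and KDM4A were among the higher genes and KDM4B among the lower. The median log2 fold change of the list was −0.02. TRIM28 stood at 427 ± 37.5 CPM in ITGB4 high (n = 2) against 376 ± 9.66 CPM in ITGB4 low clone 1 (n = 3), a log2 fold change of −0.18 (adjusted p = 0.00551) whose call was lost without ITGB4 high replicate 1 (adjusted p = 0.15). SETDB1 was not called, at 35.7 ± 1.12 and 35.5 ± 0.681 CPM (adjusted p = 0.925). The chromatin remodeller CHD3 and the 5-methylcytosine oxidase TET2 were higher, by 0.68 and 0.53 on the log2 scale (adjusted p = 4.46e-10 and 5.74e-05). TET1 had the largest rise, 1.11 (adjusted p = 0.0225), from 0.771 ± 0.343 to 1.68 ± 0.38 CPM, and its call was lost without ITGB4 high replicate 1 or ITGB4 low clone 1 replicate 2 (adjusted p = 0.238 and 0.0859). The DNA methyltransferase DNMT3A, the histone chaperone DAXX and the histone methyltransferase EHMT1 were lower, with log2 fold changes of −0.72, −0.39 and −0.36 (adjusted p = 0.000569, 3.46e-06 and 4.67e-05).

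Along the chromosome, members were grouped into 8 clusters, runs of at least 5 members with neighbouring starts at most 1 Mb apart, which left 17 members outside. Cluster 8, the telomeric end of the long arm from ZNF628 to ZNF446 (55476332 to 58481230), held 48 members, of which 23 were lower in ITGB4 low clone 1 and 2 were higher, with a median log2 fold change of −0.30. In the same stretch, 19 other protein-coding genes were tested, of which 2 were lower and 4 higher, with a median of −0.10. Of all genes tested, 27.6% were lower and 28.6% higher. The falls of cluster 8 were small, with log2 fold changes no lower than −0.71. Chosen after its values were seen, ZNF134 had the largest called fall there, from a mean of 21.3 CPM to one of 13.0 CPM (log2 fold change −0.71, adjusted p = 4.38e-07), followed by ZNF548 (−0.70), ZNF551 (−0.66) and ZNF549 (−0.65). ZNF865 was lower by the same kind of step at a higher level, 49.1 against 32.4 CPM (log2 fold change −0.60).

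In cluster 1 (ZNF557 to ZNF846, 13 members) 6 were lower, in cluster 2 (ZNF653 to ZNF791, 16 members) 6 were lower and 1 higher, and in cluster 7 (ZNF175 to ZNF331, 30 members) 8 were lower and 2 higher. Cluster 6 (ZNF575 to ZNF296, 21 members) had 4 lower and 1 higher, and cluster 3 (ZNF101 to ZNF100, 14 members) had 3 lower and 2 higher. Cluster 4 (ZNF302 to ZNF792, 5 members) had 1 of each, and outside the clusters 8 of 17 were lower and 2 higher. Over all genes tested 27.6% were lower and 28.6% higher, and differences between clusters were not tested.

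Cluster 5 (ZNF565 to ZNF573, 36182060 to 37817300, 17 members) had 3 members lower, 3 higher and 11 not called. The shares over all genes tested were 27.6% lower and 28.6% higher. ZNF850, ZNF790 and ZNF345 are consecutive members and were lower by 0.95, 1.81 and 1.37 on the log2 scale, whereas the next member, ZNF420, was not called (log2 fold change −0.09). ZNF568, which is under the count minimum, starts between ZNF345 and ZNF420. It had 12 and 17 counts in ITGB4 high and 0 in every clone 1 library. It passed the filter on low counts only through ITGB4 high, which fixed the direction of its edgeR call. That call (log2 fold change −6.74, adjusted p = 8.4e-05) is therefore no support. The members that were higher were ZNF585A, ZNF569 and ZNF573, with ZNF585B, ZNF383 and ZNF527, which were not called, between ZNF585A and ZNF569. ZNF146, the most abundant member per kilobase, lies in the same cluster and had a log2 fold change of −0.08.

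**Figure D3:**
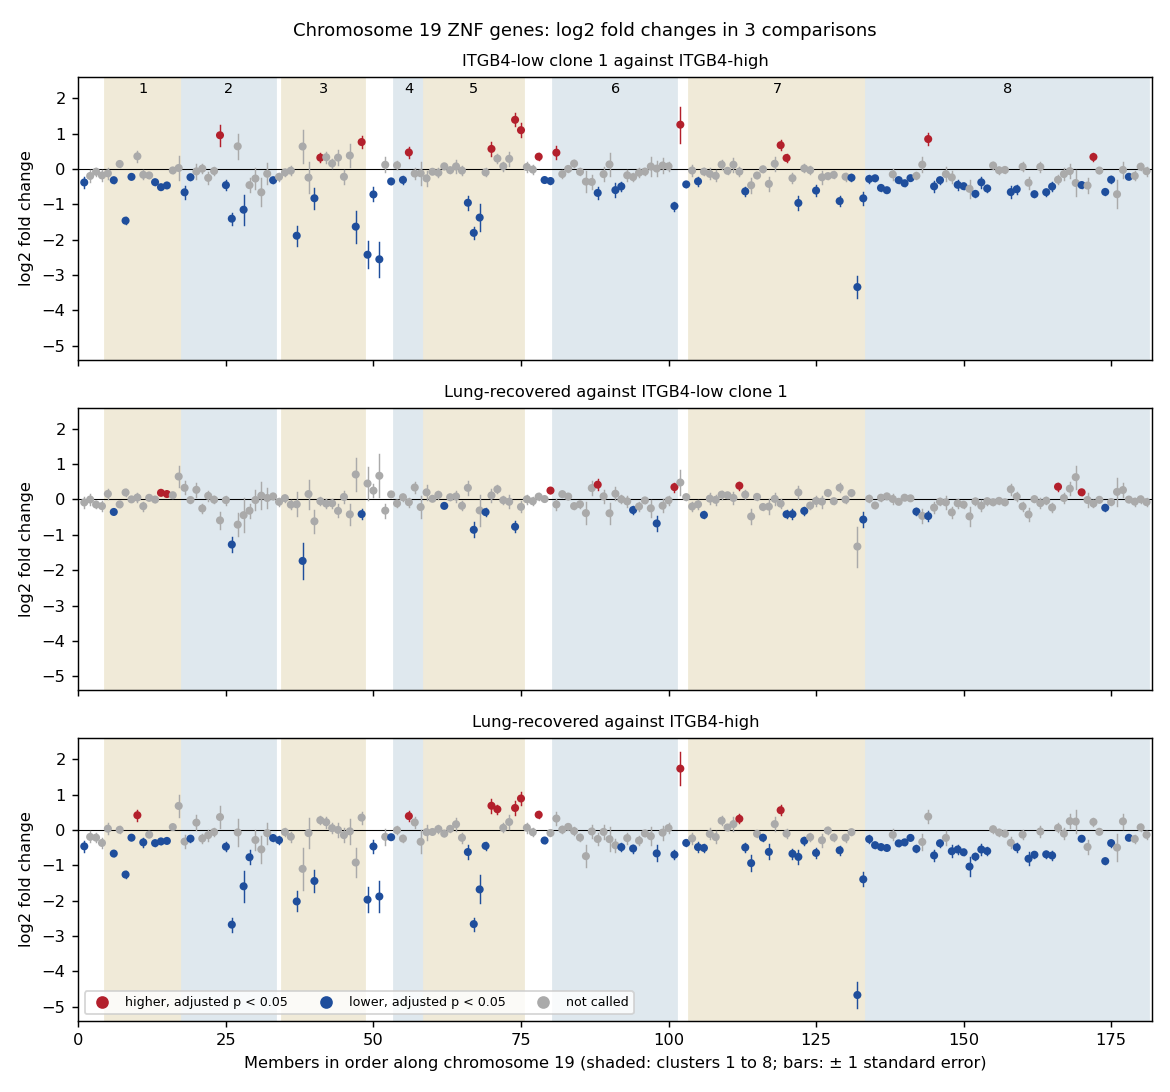
Log2 fold change (points) with ± 1 standard error (bars) of the 181 members in their order along chromosome 19, in the 3 comparisons; red and blue mark adjusted p under 0.05, and shading in alternating colours marks clusters 1 to 8. Blue points outnumber red in both comparisons with ITGB4 high, cluster 8 shows many small falls, and the lowest point in those panels is ZNF813 (−3.34 and −4.67).

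**Figure D4:**
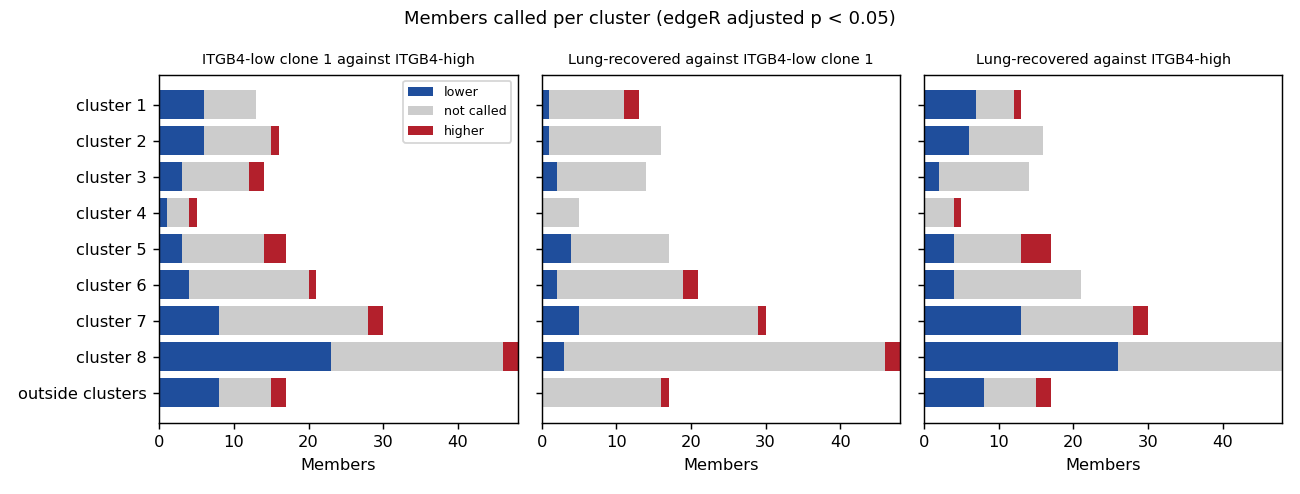
Number of members lower (blue), not called (grey) and higher (red) in each cluster, for the 3 comparisons, by edgeR at adjusted p under 0.05. In cluster 8, 23 of 48 members were lower in ITGB4 low clone 1 and 26 in lung-recovered cells, both against ITGB4 high.

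Protein features that the selection did not use were read from coding transcripts of GENCODE 29. A KRAB sequence pattern was found in 149 members and not in 32, and the number of C2H2 fingers ran from 0 to 31 with a median of 12. Among members with the pattern, 45 were lower (30.2%) and 12 higher in ITGB4 low clone 1, with a median log2 fold change of −0.17. Among members without it, 17 were lower (53.1%) and 2 higher, with a median of −0.27. Several members without the pattern, such as ZNF581, ZNF787 and ZNF865, are abundant and lie in cluster 8. Class, level and position were not separated here. By finger number the shares lower were 29.4% of 17 members with 0 to 6 fingers, 33.3% of 78 with 7 to 12 and 36.0% of 86 with 13 or more. Over all genes 27.6% were lower and 28.6% higher. The difference between these classes was not tested, and a pattern that was not found does not show that a protein lacks the domain.

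The comparison of lung-recovered cells with ITGB4 low clone 1 cells grown in dishes asks how the clone differs after it has been in the lungs of bleomycin-treated mice. Of the 181 members, 18 were lower (9.94%), against 15.4% of all genes, and 8 were higher (4.42%), against 14.7%, by the same test. The other 155 members were not called, and the members' median log2 fold change was −0.03, against 0.00 over all genes. Libraries did not overlap for 51 members (28.2%), against 43.3% of all genes. Of the ZNF genes of other chromosomes, 27 of 226 were lower and 10 higher, whereas the other chromosome 19 genes had 65 of 696 lower and 137 higher. The difference between the members and these sets was not tested. The counts rested on single libraries: the rises numbered 4, 2 and 2 without ITGB4 low clone 1 replicate 2, ITGB4 low clone 1 replicate 3 or lung-recovered replicate 3, and 0 without lung-recovered replicate 1, where 10 had an unadjusted p under 0.05. Leaving out ITGB4 low clone 1 replicate 2, or lung-recovered replicates 1 or 3, gave 11, 10 and 10 falls. DESeq2 called 3 rises and 12 falls with all libraries.

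ZNF44 had the largest fall of those with a group mean of at least 1 CPM and no overlap. With the values above, lung-recovered cells were below ITGB4 low clone 1 by a log2 fold change of −1.28 ± 0.22 (adjusted p = 0.000132). ZNF790 fell by 0.86 (SE 0.21, adjusted p = 0.00421) and ZNF569 by 0.77 (SE 0.16, adjusted p = 0.000721). ZNF649, which binds LINE-1 sequence, had 12.1, 12.6 and 10.8 CPM in ITGB4 low clone 1 and 8.23, 9.27 and 8.69 CPM in lung-recovered cells, with no overlap (log2 fold change −0.44 ± 0.10, adjusted p = 0.00169). ZNF83 went from 13.7, 11.2 and 12.8 CPM to 9.54, 8.09 and 10.4 CPM (log2 fold change −0.42 ± 0.11, adjusted p = 0.00561). These 5 falls were called under each of the 13 alternative settings and libraries left out.

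The other 5 of the 10 largest falls, ZNF112, ZNF331, ZNF470, ZNF100 and ZNF611, had log2 fold changes from −0.68 to −0.41 and adjusted p from 0.0183 to 0.0417, and each lost its call when 1 of the 6 libraries compared was left out, for 3 to 5 of those libraries. The highest adjusted p over the alternatives was 0.0912 for ZNF112, without ITGB4 low clone 1 replicate 1, and 0.184 for ZNF331, without lung-recovered replicate 2. The highest was 0.0779 for ZNF470 and 0.181 for ZNF100, both without ITGB4 low clone 1 replicate 2, and 0.147 for ZNF611, without ITGB4 low clone 1 replicate 3. ZNF420, named for its described role, was also lower (log2 fold change −0.36, adjusted p = 0.018) and lost its call without ITGB4 low clone 1 replicate 2 or lung-recovered replicates 1 or 3 (adjusted p = 0.0913, 0.0511 and 0.0982).

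The 7 rises with a group mean of at least 1 CPM and no overlap were ZNF230, ZNF841, ZNF586, ZNF526, ZNF587, ZNF121 and ZNF561, with log2 fold changes of 0.42, 0.39, 0.36, 0.25, 0.20, 0.19 and 0.15. ZNF841 was at 6.85, 6.52 and 6.88 CPM in ITGB4 low clone 1 and at 9.66, 7.38 and 9.36 CPM in lung-recovered cells (adjusted p = 0.0148). ZNF121 was at 29.1, 29.0 and 30.3 CPM and then at 34.8, 32.7 and 33.2 CPM (adjusted p = 0.0155). All 7 lost their call without lung-recovered replicate 1, at adjusted p from 0.0621 to 0.207, and each also lost it without at least 1 other of the 6 libraries. Summed lung fibroblast markers were 153 to 159 CPM in the same lung-recovered libraries against 46.4 to 54.9 CPM in ITGB4 low clone 1, and their part in these changes was not tested.

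Of the co-repressor list, 3 genes were higher (7.89%) and 11 lower (28.9%) in lung-recovered cells than in ITGB4 low clone 1, against 14.7% and 15.4% of all genes, with a median log2 fold change of −0.02. CBX1, an HP1 protein, went from 116 ± 2.23 to 85.9 ± 2.00 CPM (n = 3 each; log2 fold change −0.44, adjusted p = 9.09e-07). TET2 and ATRX, the latter a chromatin remodeller that acts with DAXX, were lower by 0.44 and 0.32 on the log2 scale (log2 fold changes −0.44 and −0.32, adjusted p = 0.000358 and 0.000165). HELLS, SMARCAD1 and DNMT1 were higher by 0.22, 0.22 and 0.15, and all of these calls were lost without lung-recovered replicate 1 or ITGB4 low clone 1 replicates 2 or 3, at adjusted p from 0.0534 to 0.156. TRIM28 stood at 377 ± 7.45 CPM in lung-recovered cells and was not called (log2 fold change 0.00 ± 0.05, adjusted p = 0.994).

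The last comparison, lung-recovered against ITGB4 high cells, shares its libraries with the other comparisons and so is no independent check of them. By the same test 70 members were lower (38.7%), against 25.0% of all genes, and 10 were higher (5.52%), against 26.2%, with a median log2 fold change of −0.22 against 0.01 over all genes. Of the 696 other chromosome 19 genes, 32.3% were lower and 22% higher, with a median of −0.06. Among the 226 ZNF genes of other chromosomes, 33.2% were lower and 18.6% higher, with a median of −0.12. The difference between the members and these sets was not tested. At 2-fold or more, 12 were lower, with 2.50% of all genes called at that size. Here too, members low in clone 1 cells could meet the count minimum through their ITGB4 high counts. The 12 falls therefore cannot be read as an excess over 2.50%. Libraries did not overlap for 118 members (65.2%), against 66.8% of all genes. The rises numbered 4 without ITGB4 high replicate 1 and 6 without lung-recovered replicate 3, and the falls ranged from 59 to 68 over the libraries left out. In cluster 8, 26 of 48 members were lower, with a median of −0.36, and of the 19 other genes of that stretch 5 were lower and 3 higher.

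The 10 largest falls were ZNF813 (log2 fold change −4.67 ± 0.38, adjusted p = 3.38e-09), ZNF44 (−2.68 ± 0.20), ZNF790 (−2.66 ± 0.19), ZNF506 (−2.02 ± 0.28), ZNF91 (−1.97 ± 0.36), ZNF85 (−1.44 ± 0.31), ZNF331 (−1.40 ± 0.20), ZNF558 (−1.26 ± 0.09), ZNF547 (−1.04 ± 0.27) and ZNF836 (−0.94 ± 0.23), with adjusted p of at most 0.00286. All 10 were called under each of the 12 alternatives. ZNF85 stood at 2.00 and 1.99 CPM in ITGB4 high and at 0.798, 0.851 and 0.564 CPM in lung-recovered cells. ITGB4 low clone 1 held 0.631, 1.55 and 1.17 CPM of it, which overlaps the lung-recovered values. Of the rises, ZNF573 (0.89 ± 0.19, adjusted p = 0.000732), ZNF585B (0.58 ± 0.13, adjusted p = 0.000742), ZNF701 (0.56 ± 0.14, adjusted p = 0.00252) and ZNF780A (0.43 ± 0.10, adjusted p = 0.00145) kept their call under each alternative.

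ZNF585A, ZNF569, ZNF699 and ZNF599 were the other rises of that rule, at log2 fold changes of 0.68, 0.62, 0.42 and 0.39. Each lost its call without ITGB4 high replicate 1, at adjusted p of 0.125, 0.209, 0.0525 and 0.116. ZNF569, ZNF699 and ZNF599 also lost it without lung-recovered replicate 3 (adjusted p = 0.0532, 0.13 and 0.146), ZNF699 and ZNF599 without ITGB4 high replicate 2 (0.215 and 0.127), and ZNF599 without lung-recovered replicate 1 (0.0686). ZNF585B shares 24.9% of its 50-mers with other genes, mainly ZNF585A. Of the co-repressor list, 10 genes were higher (26.3%) and 17 lower (44.7%) against ITGB4 high, where 26.2% and 25.0% of all genes were, with a median of −0.05. MPHOSPH8, MORC2 and CHD3, which act in chromatin silencing, were higher by 0.53, 0.49 and 0.45 on the log2 scale (adjusted p = 2.04e-05, 2.77e-06 and 2.55e-07). DNMT3A, ATRX and EHMT1 were lower, with log2 fold changes of −0.57, −0.54 and −0.38 (adjusted p = 0.0037, 3.12e-07 and 2.67e-05), and DNMT3A lost its call without ITGB4 high replicate 2 (adjusted p = 0.0746).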

How the data were processed

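The authors deposited 1 table of raw counts, with 58336 Ensembl gene identifiers and a column for each of 8 RNA-seq libraries. STAR 2.7.1a and hg38 are named in the submitters' processing notes, and the labels' protocols describe poly(A) selection and strand-marked (dUTP) libraries. The program, strand setting and annotation release of the counting step were not given in the sources used here, and overlapping, antisense and near-identical genes have uncertain counts. Exons of 63 members overlap another gene on the same strand and those of 59 a gene on the opposite strand. Symbols, gene types and 1-based coordinates came from GENCODE 29, which matched 58216 identifiers.

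The sample titles gave the groups and replicate numbers. A model per gene was fitted over all 8 libraries with edgeR 4.0.16 (R 4.3.3, limma 3.58.1), with a term per group, filterByExpr and TMM scaling, which kept 15220 genes. The quasi-likelihood F test was adjusted by Benjamini-Hochberg over all of them, and calls have adjusted p under 0.05. Standard errors are the log2 fold change over the square root of F. Residual degrees of freedom were 5, and the common biological coefficient of variation was 0.0452. Levels are CPM after TMM scaling. Each pair of libraries of a group differed by more than sampling noise (chi-square over degrees of freedom 1.57 to 6.13).

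Named members are, per comparison, up to 10 with the largest rise and 10 with the largest fall. These were taken among called members with a group mean of at least 1 CPM and libraries that do not overlap. Members with a described role, up to 3 risen and 3 fallen genes of the co-repressor list, ITGB4 and TRIM28 were named too. Alternatives were other scalings, DESeq2 1.42.0, limma-voom, no low-count filter, only the groups compared, a replicate block, a minimum of 200 counts and each library left out. The restriction to members sharing under 10% of their 50-mers with other genes was added after seeing the data. The members and lists were chosen with earlier results of these data known. Where a library left out leaves 1 in a group, that library is assumed to vary like the other groups.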

Additional observations from a re-analysis of the deposited data

How the results depend on the processing

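Over the alternatives no count of members changed by more than 1.5 times except the following. In ITGB4 low clone 1 against ITGB4 high, DESeq2 called 9 rises in place of 14, and leaving out 1 library gave 5 to 13 rises and 51 to 62 falls. In lung-recovered cells against ITGB4 low clone 1, upper-quartile scaling gave 4 rises, DESeq2 3 and the replicate block 5, in place of 8. Leaving out 1 library there gave 0 to 8 rises and 10 to 16 falls. The 0 was edgeR's count without lung-recovered replicate 1 (10 at an unadjusted p under 0.05). In lung-recovered against ITGB4 high cells, leaving out 1 library gave 4 to 10 rises and 59 to 68 falls. No pairing by replicate number was seen: deviations of same-numbered libraries correlated at −0.126 to 0.041. The deviations of the 2 ITGB4 high libraries mirror each other by construction, so this check cannot show that the libraries are unpaired. With the replicate number as a block the rises and falls were 10 and 57, 5 and 15, and 9 and 69 in the order of these comparisons. No named gene reversed its direction where it was called. Over the settings tried on each named gene, calls were lost 18, 76 and 28 times and left as they were 473, 403 and 425 times, in the same order. Members under 10% shared 50-mers, a restriction added after seeing the data, gave 12 rises and 49 falls, 7 and 16, and 7 and 56. Another scaling moved the median of all genes by at most 0.024 on the log2 scale. Depth limits the members under 1 CPM, where 1 library holds few counts. The causes were not tested.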

Other observations

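Some zinc finger genes in the stretch of cluster 5 are not members, and those given here were chosen after their values were seen. ZFP30 had 18 and 28 counts in the ITGB4 high libraries and 0 in each of the 6 clone 1 libraries. ZNF829 and ZNF571 had 5 and 10, and 4 and 12 counts in ITGB4 high and 0 in each clone 1 library, and were too low to test. ZNF570, 1 of the genes just under the count minimum, had 18 and 13 counts in ITGB4 high. It had 1, 4 and 4 in ITGB4 low clone 1 and 1, 2 and 4 in lung-recovered cells. ZNF570 passed the filter on low counts only through ITGB4 high, which fixed the direction of its edgeR call. In ITGB4 low clone 1 against ITGB4 high that call was a log2 fold change of −2.10 (adjusted p = 0.00271), and it is no support. The exons of ZNF570 overlap those of ZNF569 on the opposite strand, which was higher by 1.39 in that comparison. HKR1, in the same stretch, was higher as well, by 0.80 on the log2 scale (edgeR adjusted p = 1.92e-06). ZFP14 was higher by 1.66 (adjusted p = 0.0165), from 2 and 6 counts in ITGB4 high to 8, 15 and 10 in ITGB4 low clone 1. ZFP14 passed the filter only through clone 1 libraries, so its call is no support either.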
